A study of Mus musculus with 6 samples.

Results

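The genes described here encode the DNA replication machinery of the mouse cell: the proteins that mark and load replication origins, the helicase that opens the duplex, the polymerases, the sliding clamp with its loader, and the enzymes that supply thymidine nucleotides. Members were 45 named genes, and a probe set was taken for a member when its only gene symbol in the platform annotation was that gene's. In all 44 of the 45 genes were measured, through 93 probe sets, among 18193 genes in the table. Chaf1a, which encodes the large subunit of chromatin assembly factor 1, had no such probe set and was not analysed here.

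RNA came from C2C12, an established line of mouse myoblasts, seeded at 1500 cells per square centimetre in DMEM with newborn calf serum. After a day of growth, 3 samples labelled untreated went without drug and 3 labelled 5AC treated received 10 µM 5-azacytidine (5AC) for 3 days, and both groups were collected while subconfluent on day 3. 5AC is a cytidine analogue that is incorporated into RNA and DNA and traps DNA methyltransferases. All arrays used 1 cell line with no other allele or agent, and nothing in the labels says that replicates came from different cultures; p-values therefore reflect array-to-array spread alone, possibly technical.

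Array medians of the deposited intensity were 20.36 to 21.04 and array means 165.0 to 168.8, and the number of arrays limits the precision. Of 8 myoblast markers, among them Myod1 and Des, none was near background in untreated cells, where their summed intensity was 6533 to 6799. It was 4959 to 5085 in 5AC, with 6 of the 8 lower. Markers of differentiated muscle cells moved with the treatment: 11 of 12 were higher, and their summed intensity was 1671 to 2182 untreated and 5921 to 6510 in 5AC. Of 10 epithelial markers 2 were higher, Krt8 and Krt18, and 1 was lower, Krt19. The 10 summed to 548 to 597 untreated and 2913 to 3199 in 5AC. Krt19 carried most of the untreated sum, at a mean of 439 untreated and 195 in 5AC. Krt8 and Krt18 carried the 5AC sum, at means of 1991 and 711, from 15.9 and 8.14 untreated. Cdh1, Esrp1 and Cldn7 were below 20 in both groups. Of the leukocyte markers 0 of 8 passed in either direction (168 to 178 and 152 to 174), of the endothelial ones 1 of 6 was lower (64.5 to 70.2 and 46.7 to 61.1) and of the adipocyte ones 0 of 4 passed (26.8 to 42.1 and 28.7 to 36.1). The part of these markers in the results below was not tested. The bulk arrays cannot tell fewer replicating cells from less RNA per cell.

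In the eukaryotic cell cycle, origins are licensed in G1, when the origin recognition complex (ORC), CDC6 and CDT1 load the MCM2-7 ring onto DNA, and geminin later blocks CDT1 so that each origin is used only once. In S phase CDC45 and the GINS complex join the ring to form the active helicase, primase and DNA polymerase alpha start each strand, and polymerases epsilon and delta extend it while held by the PCNA clamp. Many of these genes are transcribed under E2F factors, which are active in dividing cells and repressed as myoblasts leave the cycle to differentiate.

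Replication genes were lower after 5AC in every functional group, and none of the 44 passed the test as higher, except Orc2 under 2 alternative settings given below. The fall was moderate for most: 35 of 44 were lower (limma, adjusted p under 0.05, the threshold used throughout), beside 13.8% of all genes tested, and 0 were higher, beside 15.6%. The members were bright, with untreated means of 64.8 to 4588 (median 368), beside array medians of 20.36 to 21.04 over all probe sets. Shares over all genes, here and below, include dim genes, and shares among genes of like intensity are not given. The median log2 change over the 44 was -0.44 (5AC minus untreated, on the log2(intensity + 1) scale), beside 0.01 over all genes. On the brightest probe sets, Tk1 and Gins1 were the 2 members that fell at least 2-fold, a size reached by 2.09% of all genes. Dimmer probe sets of Gins2, Prim2 and Dut were also lower by more than 2-fold, with log2 changes of -1.24, -1.29 and -1.22. Dropping 1 array at a time gave 27 to 30 members lower, the fewest without 5AC replicate 2. No share over all genes is given for those fits. At an adjusted p under 0.01, 25 members were lower, beside 7.71% of all genes.

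Seen array by array, most members were lower on each of the 5AC arrays. Relative to each gene's untreated mean, the median log2 deviation over the members was -0.47, -0.52 and -0.43 on 5AC arrays 1, 2 and 3. It was within 0.01 of 0 on each untreated array, where the reference, the mean of those same arrays, draws it toward 0. On those 5AC arrays 38, 39 and 38 of the 44 genes lay below all 3 untreated values. The share of all genes doing so on a single array is not given here. All 3 5AC values lay below all 3 untreated values for 37 genes, beside 21.2% of all genes, and above them for 1 gene, Orc2, beside 24.2%; the other 6 overlapped. The plot of intensities by array shows this separation in each functional group.

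**Figure D1:**
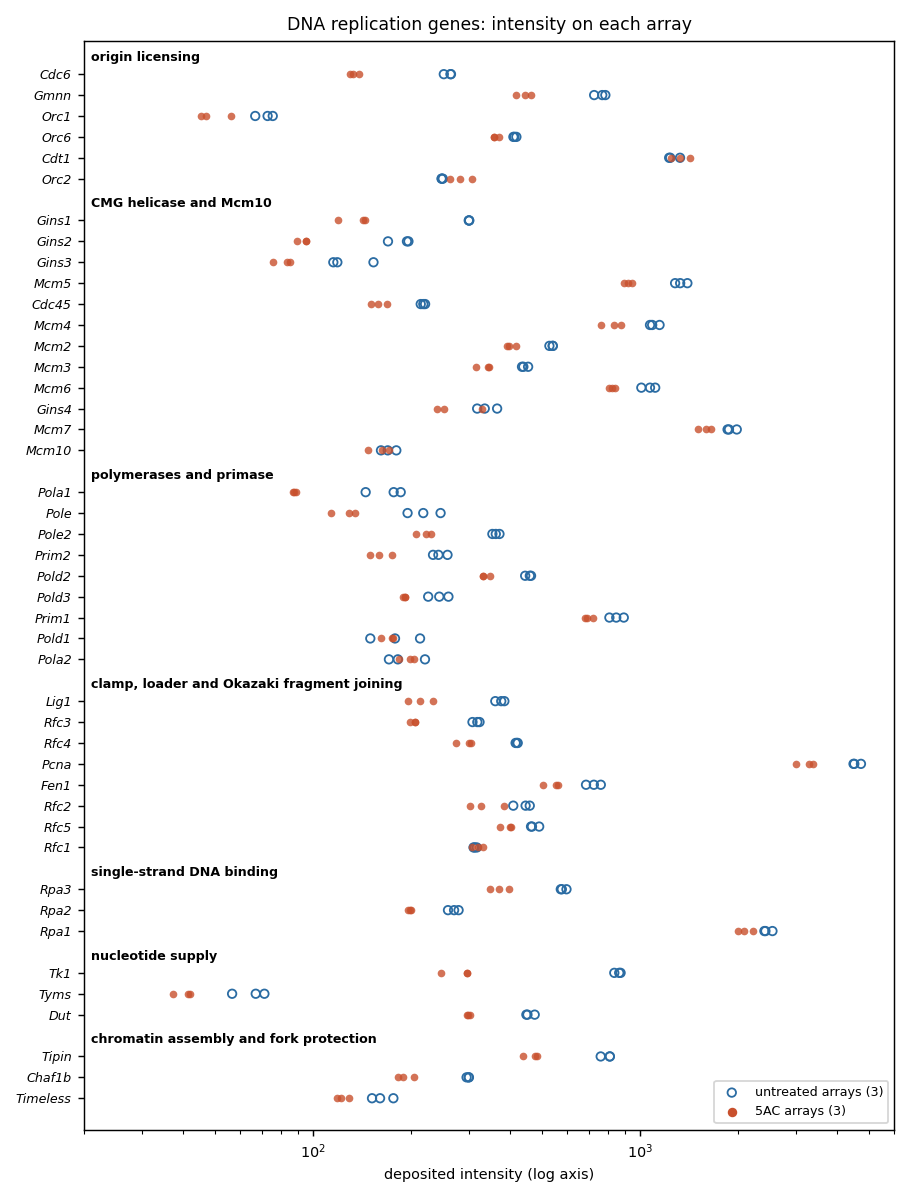
Deposited intensity (log axis) of the brightest probe set of each of the 44 measured replication genes, by functional group, on 3 untreated arrays (open circles) and 3 5AC arrays (filled circles). For 37 genes every 5AC value is below every untreated value, for Orc2 every 5AC value is above, and for Cdt1, Gins4, Mcm10, Pola2, Pold1 and Rfc1 the groups overlap.

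Promoter sequences from RefSeq (GRCm38.p6) were available for 36 of the 45 genes, as 42 windows of 300 bases that run from 250 before to 50 after an annotated start. Gins1, Gins2, Gins4, Gmnn, Mcm4, Pole, Prim2, Rfc2 and Tipin had no entry. Windows are shown because E2F sites are known from several of these promoters. The 4 letter strings searched for, on both strands, were TTTCCCGC, TTTCGCGC, TTTGCCGC and TTTGGCGC, and matches on opposite strands can overlap. In the following stretches upstream of the start, written 5′ to 3′ along the gene's strand, capitals mark these matches.
Mcm6 (chr1:128359738-128359817, minus strand): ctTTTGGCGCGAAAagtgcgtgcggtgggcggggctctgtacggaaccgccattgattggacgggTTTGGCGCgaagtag
Mcm5 (chr8:75109333-75109392, plus strand): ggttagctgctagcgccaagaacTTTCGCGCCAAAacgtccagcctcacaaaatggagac
Orc1 (chr4:108579394-108579453, plus strand): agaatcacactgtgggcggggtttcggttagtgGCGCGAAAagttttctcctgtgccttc
Cdc6 (chr11:98907986-98908045, plus strand): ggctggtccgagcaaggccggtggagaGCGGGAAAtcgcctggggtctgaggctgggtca
Pola1 (chrX:93632261-93632320, minus strand): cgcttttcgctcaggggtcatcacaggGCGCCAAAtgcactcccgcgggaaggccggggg
Gins3 (chr8:95633489-95633548, plus strand): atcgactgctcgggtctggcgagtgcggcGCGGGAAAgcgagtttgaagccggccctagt
Tk1 (chr11:117826015-117826074, minus strand): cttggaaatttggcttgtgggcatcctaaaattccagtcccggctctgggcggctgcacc

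The first 6 of these stretches were chosen to show matches and hold 1 to 3 each. The one from Tk1, the gene with the largest fall, holds none, and neither does its whole window. Over all members, 14 of 42 windows (33.3%) held a match, beside 2.26% of the 32851 promoter windows of the same length and 3.21% of those of genes tested on the array. Member windows were also rich in CpG, with a median of 22 against 7 over all windows and 16 over those of genes tested. Among windows with at least 15 CpG the shares were 41.4% (12 of 29) for members and 4.97% for all. A CCAAT box, the site of NF-Y, was in 54.8% of member windows and 37.4% of all. Of the genes that fell, 12 of 28 with a window held an E2F-type match, and of the 7 that did not pass, Cdt1 and Pold1 did. Over the windows of all genes tested, the share with a match was 5.14% for genes lower, 2.86% for genes higher and 2.88% for those not past the threshold. The members and the strings were chosen with earlier results known. A match describes letters only, no binding was measured, and a part of E2F factors in the fall was not tested.

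**Figure D2:**
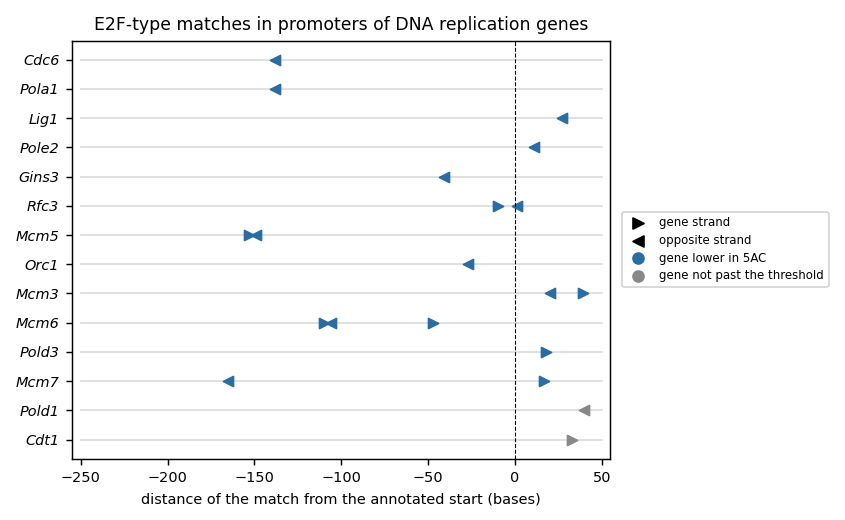
Position of each E2F-type match, as the distance in bases of its first base from the annotated start, in the 14 replication genes with a match (250 bases before to 50 after the start); arrowheads give the strand. Genes are ordered by log2 change, and Cdt1 and Pold1, in grey, are those not past the threshold.

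Origin licensing genes split into a group that fell and a group that did not. Of 6, Cdc6, Gmnn, Orc1 and Orc6 were lower, 0 were higher, and Cdt1 and Orc2 did not pass; the median log2 change was -0.36. Cdc6, whose ATPase helps ORC load the MCM ring, read 263, 264 and 251 on the untreated arrays and 133, 130.1 and 138 on the 5AC arrays. These values fell to 51.5% of the untreated mean without overlap, a log2 change of -0.95 ± 0.06 (SE; adjusted p = 0.000681). Gmnn, which encodes the CDT1 inhibitor geminin, read 784, 767 and 724 untreated and 464, 419 and 445 with 5AC. Its log2 change was -0.78 ± 0.07 (adjusted p = 0.00155), again with no overlap.

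Orc1, the ORC subunit whose level is known to vary through the cell cycle, was among the dimmer members, at 72.6, 66.6 and 75.3 untreated and 45.5, 47.2 and 56.0 in 5AC. The arrays did not overlap and the log2 change was -0.52 ± 0.10 (adjusted p = 0.0169, and 0.0531 to 0.0619 without untreated replicate 1 or 3 or 5AC replicate 1 or 2). Orc6 fell to 87.3% of its untreated mean (log2 change -0.20 ± 0.05, adjusted p = 0.0351), a call lost whichever array was dropped (adjusted p = 0.067 to 0.11).

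On its brightest probe set Orc2, a core ORC subunit, went the other way without passing. It read 249, 247 and 248 on the untreated arrays and 305, 262 and 281 on the 5AC arrays, so all treated values were higher (log2 change 0.18 ± 0.07, adjusted p = 0.127). Its call as higher was made with an intensity trend (adjusted p = 0.0371) or without dim genes (adjusted p = 0.0426), and its other probe sets gave 0.09 and -0.27. The last of these, the dimmest, had every 5AC value below every untreated one and did not pass either (-0.27 ± 0.09, limma adjusted p = 0.0994 over all probe sets). The 3 ORC genes outside the member list did not fall either. Orc3 was at 220.3, 248 and 246 untreated and 315, 295 and 307 in 5AC (log2 change 0.36 ± 0.07, adjusted p = 0.017). Orc4 was at 428, 411 and 407 and then 486, 494 and 492 (log2 change 0.24 ± 0.05, adjusted p = 0.0205), while Orc5 overlapped between groups at 0.08 ± 0.06 (adjusted p = 0.395). Within the complex, the 2 genes that fell were thus Orc1 and Orc6, and the 2 that rose were Orc3 and Orc4. Neither rise passed without 5AC replicate 1, without 5AC replicate 3, with the mean of all probe sets or at an adjusted p under 0.01, and Orc6 was lost as given above.

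Cdt1, the loading factor that geminin binds, read 1326, 1228 and 1237 untreated and 1328, 1244 and 1420 in 5AC. The groups overlapped, with a log2 change of 0.07 ± 0.07 (adjusted p = 0.528). Another bright probe set of Cdt1 gave -0.02 ± 0.06, and a dim one, at a mean intensity of 4.67 untreated and 1.19 treated, gave -1.36 on the log2(intensity + 1) scale and -0.26 with 16 added. Taken as a ratio within each array, the log2 difference Cdt1 minus Gmnn was 0.74 ± 0.05 (SD, n = 3) untreated and 1.58 ± 0.08 in 5AC. This 1.80-fold increase in the ratio came without overlap, at the smallest p that an exact two-sided permutation test of 3 against 3 arrays allows (p = 0.1, adjusted p = 0.133 over the 4 ratios that could be formed). The difference Orc1 minus Orc2 went from -1.78 ± 0.09 to -2.49 ± 0.21 (exact permutation p = 0.1), a fall of the ratio to 0.61 of its untreated value. With the mean of all probe sets, these changes were 0.34 for Cdt1 minus Gmnn, in place of 0.85, and -0.43 for Orc1 minus Orc2, in place of -0.71.

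**Figure D3:**
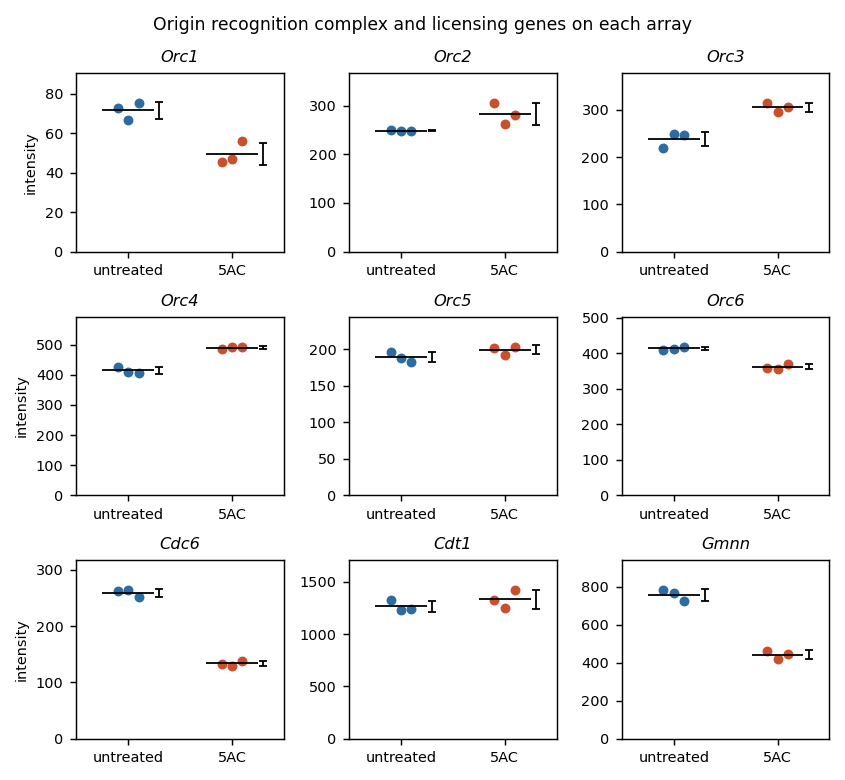
Intensity on each untreated (blue) and 5AC (red) array for the 6 ORC subunit genes, Cdc6, Cdt1 and Gmnn, each on its own linear axis from 0; horizontal lines are means and the bars beside them SD (n = 3). Orc1, Orc6, Cdc6 and Gmnn were lower in 5AC, Orc3 and Orc4 were higher (calls lost without 5AC replicate 1 or 3), and Orc2, Orc5 and Cdt1 did not pass the test.

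The helicase genes fell in 10 of 12 cases, with a median log2 change of -0.42, and the GINS subunits held the largest falls. Gins1, whose product PSF1 is part of the ring-binding tetramer, read 300.4, 299 and 300.2 untreated and 142, 119 and 144 in 5AC. It fell to 45.1% of the untreated mean (log2 change -1.15 ± 0.09, adjusted p = 0.00122). Gins2, for its partner PSF2, went from 169.6, 194 and 196 to 95.1, 89.6 and 95.4, a log2 change of -0.99 ± 0.08 (adjusted p = 0.0013). Gins3 went from 153, 119 and 115 to 85.0, 83.5 and 75.4 (log2 change -0.65 ± 0.13, adjusted p = 0.0183). Its groups were apart, but 1 untreated array stood above the other two, and the call was lost without any 1 of the 5AC arrays (adjusted p = 0.0533 to 0.0625).

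Gins4, the last of the tetramer, read 335, 366 and 318 untreated and 329, 239.7 and 252 in 5AC. One treated array lay inside the untreated range, and the log2 change of -0.32 ± 0.14 did not pass (adjusted p = 0.162, but 0.0353 without 5AC replicate 1, that array, and 0.0448 with an intensity trend). The 6 MCM ring genes all fell, with log2 changes from -0.27 ± 0.06 for Mcm7 to -0.54 ± 0.06 for Mcm5. Mcm2, Mcm3, Mcm4 and Mcm6 lay between, at -0.41, -0.41, -0.43 and -0.38, and none of the 6 overlapped between groups. Other probe sets of Mcm3 ranged from -0.24, not past the threshold, to -0.82. The call of Mcm7 was lost whichever array was dropped (adjusted p = 0.0568 to 0.0838), although its 3 other probe sets gave -0.54, -0.36 and -0.39. Cdc45, which links the ring to GINS, fell to 73.3% of its untreated mean (log2 change -0.45 ± 0.06, adjusted p = 0.00584).

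Mcm10, a replication initiation factor that binds the helicase but is no part of the ring, was at 161, 169 and 179.8 untreated and 162, 148 and 170.5 in 5AC. These values overlapped (log2 change -0.09 ± 0.08, adjusted p = 0.49). Thus every gene of the helicase proper except Gins4 was lower, and Mcm10 showed no detectable shift at this spread.

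**Figure D4:**
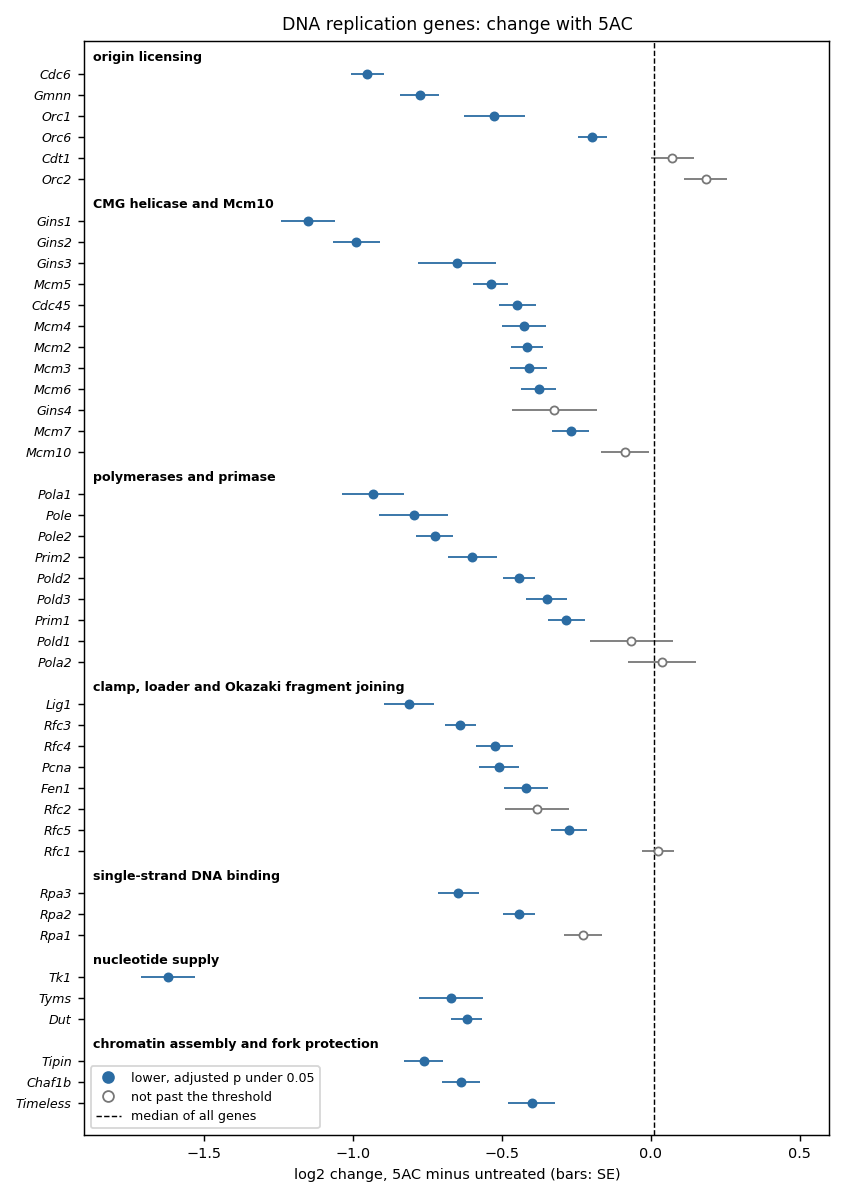
Log2 change (5AC minus untreated) with its SE for the 44 measured replication genes, grouped by function and ordered within each group; filled points passed the limma test at adjusted p under 0.05, open points did not, and the dashed line is the median of all genes, 0.01. Tk1 lies farthest out at -1.62, and Orc2, Cdt1, Pola2 and Rfc1 lie to the right of the dashed line.

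Polymerase and primase genes were lower in 7 of 9 cases (median log2 change -0.44), with the catalytic and accessory subunits of 1 enzyme at times apart. Pola1, the catalytic subunit of polymerase alpha, read 185, 145 and 176 untreated and 87.2, 86.9 and 88.7 in 5AC, a fall to 51.9% (log2 change -0.93 ± 0.11, adjusted p = 0.00319). Its partner Pola2 read 171, 182 and 220.0 untreated and 198, 183 and 204 in 5AC. The Pola2 groups overlapped and the log2 change was 0.04 ± 0.11 (adjusted p = 0.846). Of the primase genes that complete this enzyme, Prim1, the catalytic subunit, changed by -0.28 ± 0.06 (adjusted p = 0.0248) and Prim2 by -0.60 ± 0.08 (adjusted p = 0.0056). A second Prim2 probe set gave -1.29 ± 0.12, and the call of Prim1 was lost without any 1 array except untreated replicate 3 (adjusted p = 0.0596 to 0.0825).

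Both subunit genes of the leading-strand polymerase epsilon in the member list fell. Pole, the catalytic subunit, went from 195, 217 and 246 to 135, 113 and 129 (log2 change -0.80 ± 0.12, adjusted p = 0.00674). Pole2 went from 372, 354 and 362 to 207, 221 and 229 (log2 change -0.73 ± 0.06, adjusted p = 0.00155). Both pairs of groups were apart, and the log2 difference Pole2 minus Pole was 0.73 ± 0.19 untreated and 0.80 ± 0.17 in 5AC, overlapping (exact permutation p = 0.7). Of the small epsilon subunits, outside the member list and named after their values were seen, Pole3 fell (log2 change -0.65 ± 0.09, adjusted p = 0.0056). Pole4 overlapped between groups at 0.08 ± 0.07 (adjusted p = 0.438).

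The lagging-strand polymerase delta was uneven. Pold1, its catalytic subunit, read 178, 149.7 and 213 untreated and 175, 161 and 176 in 5AC. Its 5AC values lay inside a wide untreated range (log2 change -0.06 ± 0.14, adjusted p = 0.783), and a tighter second probe set gave -0.06 ± 0.08. The accessory genes fell, Pold2 to 73.6% of its untreated mean (log2 change -0.44 ± 0.05, adjusted p = 0.00366) and Pold3 to 78.3% (-0.35 ± 0.07, adjusted p = 0.0179, and 0.0524 to 0.0632 without untreated replicate 3 or any 1 5AC array).

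Clamp, loader and Okazaki fragment genes were lower in 6 of 8 cases, with a median log2 change of -0.46. Lig1, the ligase that seals Okazaki fragments, went from 361, 376 and 385 to 212, 195 and 233, a log2 change of -0.81 ± 0.08 (adjusted p = 0.00239). Fen1, the nuclease that trims their flaps, fell by 0.42 (adjusted p = 0.0116), and Pcna, the sliding clamp, fell to 70.4% of its untreated mean (log2 change -0.51 ± 0.07, adjusted p = 0.00499). None of these 3 genes overlapped between groups.

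The clamp loader RFC is a pentamer of 1 large and 4 small subunits, and the large one stood apart. Rfc3 went from 307, 318 and 323 to 205, 204 and 199 (log2 change -0.64 ± 0.05, adjusted p = 0.00132), and Rfc4 from 417, 421 and 423 to 303, 300.5 and 273 (-0.52 ± 0.06, adjusted p = 0.00374). Rfc5 fell by 0.27 (adjusted p = 0.0247), a call lost whichever array was dropped (adjusted p = 0.0587 to 0.0722). Those falls came without overlap. Rfc2 read 409.7, 460.2 and 447 untreated and 327, 303 and 384 in 5AC, also apart, but its log2 change of -0.38 ± 0.11 missed the threshold (adjusted p = 0.0525). Rfc2 passed under 6 of 15 alternatives, among them leaving out 5AC replicate 3 (adjusted p = 0.0285). Its other probe sets gave -0.33, which was lower (adjusted p = 0.0343 over all probe sets), and -0.37, which did not pass. Rfc1, the large subunit, read 317, 312 and 309.7 untreated and 306, 319 and 330.1 in 5AC. It overlapped at a log2 change of 0.02 ± 0.05 (adjusted p = 0.789), and its other probe sets gave 0.21 and 0.12.

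Of the 3 genes for replication protein A, the single-strand DNA binding trimer, the smaller subunits passed. Rpa3 went from 573, 596 and 577 to 397, 372 and 348 (log2 change -0.65 ± 0.07, adjusted p = 0.00267). Rpa2 went from 279, 270.1 and 259 to 199.96, 195 and 198 (-0.44 ± 0.05, adjusted p = 0.00396). Rpa1, the large subunit, read 2542, 2402 and 2419 untreated and 2215, 1997 and 2080 in 5AC. The groups of Rpa1 were apart too, and its log2 change of -0.23 ± 0.06 lay just beyond the threshold (adjusted p = 0.0505), while a second probe set was lower at -0.39 ± 0.06 (adjusted p = 0.0118 over all probe sets). Rpa1 itself passed under 6 of 15 alternatives.

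Nucleotide supply held the largest fall. Tk1, the cytosolic thymidine kinase that salvages thymidine in S phase, read 864, 872 and 835 untreated and 296, 246 and 295 in 5AC. It fell to 32.6% of its untreated mean (log2 change -1.62 ± 0.09, adjusted p = 0.000644), place 106 from the bottom among 18193 genes ordered by log2 change. Dut, the dUTPase that keeps uracil out of DNA, went from 476, 453 and 449 to 303, 296 and 299 (-0.62 ± 0.05, adjusted p = 0.00147). Tyms, thymidylate synthase, was dim, at 56.6, 66.8 and 71.0 untreated and 41.4, 41.9 and 37.3 in 5AC. Without overlap, its log2 change was -0.67 ± 0.11 (-0.52 with 16 added; adjusted p = 0.00864).

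A brighter probe set that the annotation assigns to both Tyms and its pseudogene Tyms-ps was not a member. It read 607, 608 and 605 untreated and 334, 329 and 371 in 5AC, a log2 change of -0.82, and signal from gene and pseudogene cannot be told apart there. The within-array difference Tk1 minus Tyms went from 3.71 ± 0.19 to 2.76 ± 0.22, a change of -0.95 without overlap (exact permutation p = 0.1, adjusted p = 0.133 over the 4 ratios). This ratio rests on the dim Tyms probe set. With the mean of all Tyms probe sets, the log2 change of Tyms was -0.20 (limma adjusted p = 0.159). That mean takes in probe sets at mean intensities of 3.74 and 10.8, which gave 0.35 and 0.32. The remaining one, at a mean intensity of 28.1, gave -0.79.

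All 3 measured genes for chromatin assembly and fork protection fell. Tipin, which with TIMELESS steadies the moving fork, went from 809, 758 and 809 to 478, 439 and 484 (log2 change -0.76 ± 0.07, adjusted p = 0.00157). Timeless itself went from 152, 160.4 and 176 to 129, 118 and 122 (-0.40 ± 0.08, adjusted p = 0.0169, and 0.0541 to 0.0612 without untreated replicate 2 or 5AC replicate 2 or 3). Chaf1b, the middle subunit of the factor that deposits histones behind the fork, went from 295, 299 and 299.8 to 188, 182 and 204 (-0.64 ± 0.06, adjusted p = 0.00222). Groups did not overlap for any of the 3. The planned ratio of Chaf1b to Chaf1a could not be formed.

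No gene had probe sets called in opposite directions, but many of the dimmer ones did not pass. For Orc2 all 5AC values were higher on the brightest probe set and lower on the dimmest, and neither passed. Of the 93 member probe sets, fitted beside all 34945 with 1 symbol, 58 were lower and 0 higher, while 35 did not pass, where 11.3% of all probe sets were lower. The 32 genes with several probe sets had 49 others beside the brightest one, of which 24 were lower. Of the 25 others that did not pass, 19 had a mean intensity under 100. For Mcm2, Mcm4, Mcm7, Gins1, Gins2, Gins3, Rfc3, Rfc4, Fen1, Rpa2 and Dut every probe set was lower. With the mean of all probe sets as the gene's value, the calls of Orc1, Orc6, Cdc45, Pola1, Prim2, Tyms, Chaf1b and Timeless were lost. The brightest probe sets of Mcm4, Mcm5, Fen1 and Pold1 carry the suffix (_x_at) by which the maker marks probes that may match other sequences. Those of Mcm2, Mcm3 and Mcm7 carry another such suffix, _s_at.

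**Figure D5:**
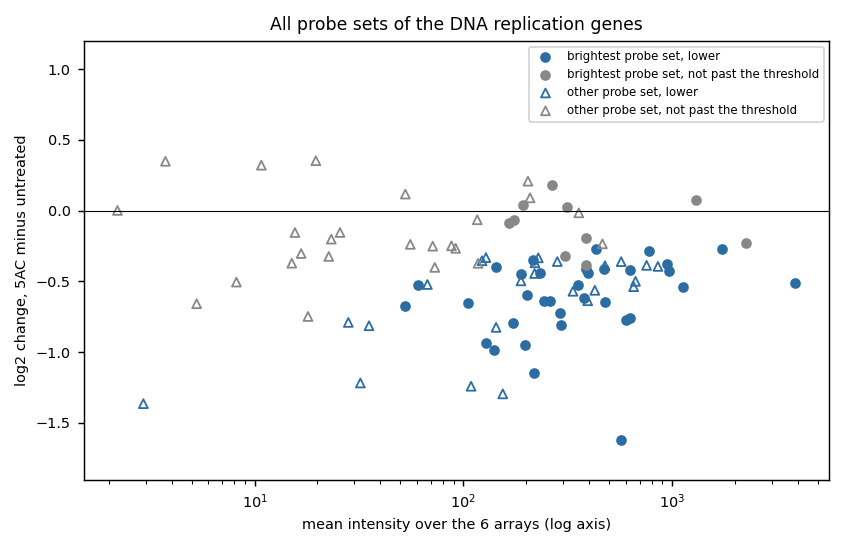
Log2 change (5AC minus untreated) against mean intensity over the 6 arrays (log axis) for all 93 probe sets of the replication genes, the brightest of each gene as circles and others as triangles; blue marks those lower in a fit over all probe sets, grey those not past the threshold. Of the 58 blue points all lie below 0, and the probe sets above 0 are grey.

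Beyond the members, a list of 46 other replication genes, 44 of them measured, held 25 lower and 3 higher, beside the same shares of 13.8% and 15.6% of all genes, with a median log2 change of -0.29. The largest falls were of Pclaf, which binds PCNA, from 1547, 1537 and 1531 to 588, 580.1 and 633 (log2 change -1.36 ± 0.06), and of the histone chaperone gene Asf1b, at -1.11 ± 0.07. Rnaseh2c, a subunit of the enzyme that removes ribonucleotides from DNA, was at -1.08 ± 0.08, Chtf18, of an alternative clamp loader, at -0.84 ± 0.16 (-0.60 with 16 added), the nucleotide pyrophosphatase gene Dctpp1 at -0.76 and the polymerase delta gene Pold4 at -0.74. For ribonucleotide reductase, Rrm2 went from 5158, 4819 and 5081 to 3668, 3547 and 3744 (-0.46 ± 0.06), and Rrm1 fell by 0.29. The 3 that rose, named after their values were seen, were Orc3, Orc4 and Mcmbp, which encodes an MCM-binding protein (0.26 ± 0.06). Of these rises, 2 passed without untreated replicate 1, 1 without untreated replicate 2 or 3 or 5AC replicate 2, and 0 without 5AC replicate 1 or 3. With the mean of all probe sets, 16 were lower and 0 higher.

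Of 34 regulators of entry into S phase, 18 were lower, beside 13.8% of all genes, and 3 higher, beside 15.6% (median log2 change -0.35). E2f1, an activator of replication genes, read 106, 104 and 108 untreated and 97.0, 92.8 and 95.7 in 5AC, apart but not past the threshold (log2 change -0.15 ± 0.05, adjusted p = 0.0841). The atypical repressors E2f7 and E2f8, which are themselves expressed in S phase, fell, with log2 changes of -1.05 and -1.08, as did the kinase inhibitor genes Cdkn2d and Cdkn2c, with -1.37 and -0.93. Higher were Cdkn1a, which encodes the inhibitor p21, at 0.91 ± 0.06, Tfdp2, a partner of E2F proteins, at 1.12 ± 0.09 and, named after its values were seen, Rb1, at 0.34 ± 0.06. With the mean of all probe sets 1 was higher. Tfdp1, another E2F partner, was brighter than Tfdp2 (untreated means 817 and 52.5) and fell (-0.51 ± 0.06, limma adjusted p = 0.00352). E2f2 fell too (-0.57 ± 0.11, adjusted p = 0.0182), and E2f3 did not pass (-0.19 ± 0.06, adjusted p = 0.0622). Tfdp1, E2f2 and E2f3 were named after their values were seen. Mki67, the proliferation marker, read 1010, 1021 and 1098 untreated and 650.5, 603 and 699 in 5AC (log2 change -0.68 ± 0.08, adjusted p = 0.00333).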

How the data were processed

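Linear probe-set intensity was deposited by the authors for each of the 6 arrays (Affymetrix). The submitters' processing notes list GCOS 1.4 as well as R 2.4.1 without stating their roles; how probes were summarized and normalized is not stated. Of 45101 probe sets, 64 were controls, 34945 had 1 gene symbol, 932 several and 9160 none here.

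Values below 0 (2.42% to 2.59% per array) were set to 0 and log2(intensity + 1) was taken. Each gene was represented by its brightest probe set, and member genes had no value at or below 0. The 2 groups were compared by a two-sided moderated test (limma 3.58.1 in R 4.3.3; lmFit, eBayes) over all 18193 genes, with Benjamini-Hochberg adjustment; the procedure was tested on simulated data. Within-array ratios were tested by exact permutation.

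Members, lists and the promoter motifs were chosen with earlier results of these data known. By rule, per-array values were printed for the 3 largest changes per role, each member not past the threshold and the ratio genes, and of each other list the 6 largest changes plus Mki67, Cdkn1a, E2f1, Rrm1 and Rrm2. Labels name no batch. Same-numbered replicates did not deviate together (correlations -0.054, -0.0043 and -0.0040 over genes of mean intensity 32 or more). Alternatives tried were an offset of 16, a minimum mean intensity of 32, the mean of a gene's probe sets or its brightest one without a suffix where it had one, quantile normalization or centring on medians, the replicate number as a block, an intensity trend in eBayes, a threshold of 0.01, and each array left out.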

Additional observations from a re-analysis of the deposited data

How the results depend on the processing

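Of the 35 members lower, 19 kept the call under all 15 alternatives and 16 lost it under at least 1; 4 of the 9 others passed under at least 1. The count of members lower was 25 with the replicate number as a block and 25 at a threshold of 0.01, 29 with the mean of all probe sets, and 34 to 38 under the remaining full-data settings. Except at the 0.01 threshold (7.71%), the share of all genes lower under these settings is not given here. Nothing in the labels says that the replicate numbers pair the samples. The block left 0 of the other replication genes higher, as did the 0.01 threshold. Members higher were 0 except for 1, Orc2, with an intensity trend and 1 without dim genes.

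The median log2 change of members was -0.41 with quantile normalization and -0.50 with probe sets without suffix where a gene had one. By role, quantile normalization gave -0.37 for the helicase, -0.41 for the clamp group and -0.71 for nucleotide supply, the offset of 16 gave -0.30 for licensing and -0.59 for nucleotide supply, and probe sets without suffix gave -0.47 for the helicase and -1.22 for nucleotide supply. The mean of all probe sets gave -0.43 for licensing, -0.92 for nucleotide supply and -0.42 for chromatin assembly and fork protection. It also gave 16 lower and 0 higher other replication genes, 1 higher regulator, and 0.34 for Cdt1 minus Gmnn, -0.43 for Orc1 minus Orc2 and -1.42 for Tk1 minus Tyms; without suffix, Cdt1 minus Gmnn was 0.76. The settings on probe sets take other, often dimmer, ones; other causes were not tested.

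With single arrays left out, the median was -0.76 to -0.62 for nucleotide supply, -0.48 to -0.41 for the clamp group and -0.41 to -0.33 for licensing, and other replication genes higher were 0 to 2. Changes of sign were confined to genes not past the threshold: Cdt1 at -0.44 and Pola2 at -0.21 with the mean of all probe sets, Cdt1 at -0.016 and Mcm10 at 0.35 without suffix, and, over the fits that each leave out 1 array, Pola2 at -0.038 to 0.144, Pold1 at -0.19 to 0.061 and Rfc1 at -0.0021 to 0.052, turned by untreated replicate 1, untreated replicate 3 and 5AC replicate 3. Detection calls were not used here, so dim probe sets such as those of Tyms were not set against a measured background.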
